A study of Zygosaccharomyces parabailii with 12 samples.

Results

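The genes described here are 100 of the 9683 genes of Zygosaccharomyces parabailii with expression values whose RNA was lower with lactic acid than in control at 18 h and higher with lactic acid than in control at 42 h. They were chosen by that pattern. For each gene the group means of the normalized read counts, scaled to library size (CPM), gave the log2 ratio of lactic acid over control at each time after adding 1 to each mean. Of all genes, 1394 had a negative ratio at 18 h and a positive ratio at 42 h, and the 100 with the largest value of the smaller of both ratios were taken. All 4 group means entered this choice, so the levels of these genes and their responses are given as a description, without a test. Z. parabailii is a hybrid yeast that holds a pair of copies (homeologs) of most genes, labelled A and B by parental origin, with N for genes that could not be assigned. Cultures of strain ATCC60483 were grown in bioreactor batches in Verduyn medium at pH 3, without lactic acid (control) or with 40 g per liter lactic acid, and RNA was sequenced after rRNA depletion, once from exponentially growing cells (18 h) and once from cells past the diauxic shift (42 h). Each of these 4 groups had 3 libraries, drawn as a triplicate of the fermentation, so the spread behind the p-values may be that of handling and sequencing alone. The control library of replicate 2 at 18 h held few counts and was left out, so that n = 2 in that group and n = 3 in the others.

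As background, yeast grows on glucose by fermentation until the sugar is used up, and at the diauxic shift it turns to respiration of ethanol and other carbon sources, with new sets of transporters and metabolic enzymes. Undissociated lactic acid enters the cell, releases protons and anions there, and puts a load on pumps, membranes and protein folding. Chaperones such as Ssa2 and Hsp60 fold newly made or damaged proteins, and the pentose phosphate pathway and malic enzyme supply NADPH for synthesis and for defense against oxidants. The roles given below are those of the S. cerevisiae homologs.

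The 100 genes held little of the RNA in lactic acid at 18 h and much of it at 42 h. Their share of the counts was 2.40% and 2.48% in the control libraries at 18 h and 0.892%, 0.864% and 0.865% with lactic acid. At 42 h it was 4.32%, 4.43% and 4.11% in control and 10.6%, 7.72% and 6.33% with lactic acid. The groups did not overlap, and the lactic acid libraries at 42 h were spread more widely than any other group. The control library left out, which the choice of genes did not use, held 102 counts of these genes among 4596, a share of 2.22% (95% exact Clopper-Pearson interval 1.81 to 2.69%, counting error only). That interval holds the share of control replicate 1 and of control replicate 3 at 18 h and lies above all 3 lactic acid libraries of that time.

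**Figure D1:**
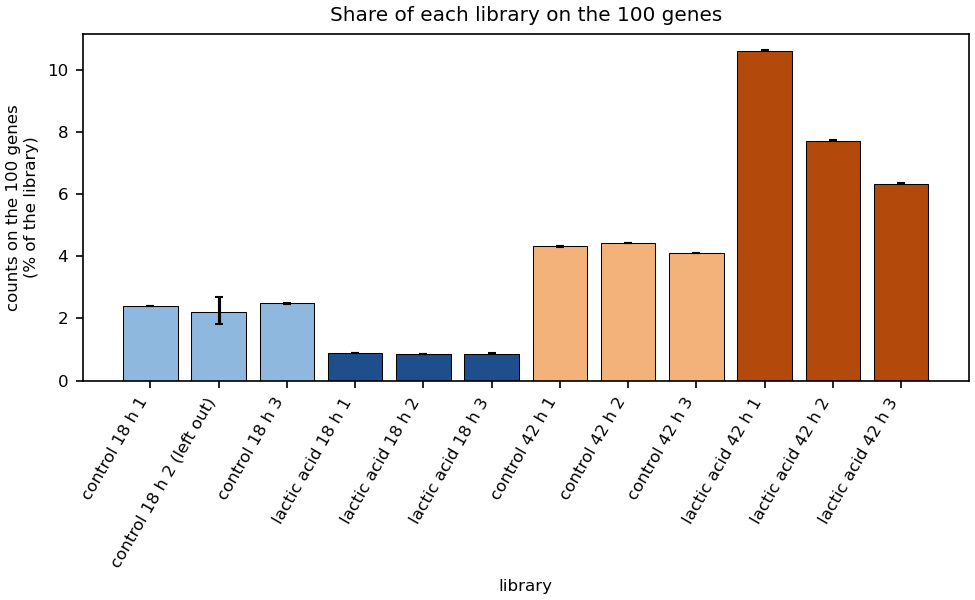
Share of the counts of each library (y axis, %) on the 100 genes, for 12 libraries in 4 groups; bars are single libraries and lines their 95% exact intervals, which cover counting error only. The lactic acid libraries lie between 0.864% and 0.892% at 18 h, below every control library, and between 6.33% and 10.6% at 42 h, above every control library.

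Within the lactic acid group at 42 h, replicate 1 stood apart for these genes. It held the highest value of that group in 86 of the 100 genes, replicate 3 in 12 and replicate 2 in 2, and the median ratio of replicate 1 to the mean of the other replicates was 1.53 over the 100 genes beside 0.949 over all genes. Without replicate 1 the median log2 fold change of the 100 genes at 42 h was 0.87 in place of 1.19, and the rule picked 74 of the 100 genes again. Of 60 of the 100 genes named here, 20 had a log2 fold change at 42 h more than 1.5 times smaller without replicate 1. It was -0.14 in place of 0.84 for F05980_B, 0.21 in place of 1.14 for K00520_N, 0.29 in place of 1.13 for D04720_A (MAE1), 0.29 in place of 1.04 for I05530_A and 0.37 in place of 0.82 for O02350_A. The others were K02670_B, H05080_B, O03800_A (GDB1), A02720_B (ADK1), B04170_A (ROX1), D06410_A, J03870_A (SPO23), B02000_A (PLB2), D01140_B, J02700_B, K02300_B (MAE1), H01170_B, K01280_B, A09660_B (IFM1) and M02860_B, with 0.32 to 1.28 without it.

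In the fit across all genes (edgeR's quasi-likelihood test, two-sided, with Benjamini-Hochberg adjustment), the log2 fold changes of the 100 genes had a median of -1.31 at 18 h, from -2.83 to -0.79, and a median of 1.19 at 42 h, from 0.78 to 2.91. The medians of all genes were 0.068 and -0.059. Counts scaled by library totals in place of TMM moved the medians of all genes to 0.28 and -0.39 and those of the 100 genes to -1.10 and 0.83, with both signs kept in all 100. An adjusted p below 0.05 was reached by 98 of them for lower RNA at 18 h, where 35.2% of all genes were called, by 99 for higher RNA at 42 h, where 28.2% were called, and by 97 for both, where 4.3% were called. These counts follow from the choice of genes and nothing is read from them. The exceptions were M02860_B and H05080_B at 18 h and F05980_B at 42 h, and the 18 h value of M02860_B was -0.49 without control replicate 1 in place of -0.95. Without lactic acid replicate 1 at 42 h both were called at 18 h, M02860_B with -0.96 (adjusted p = 0.0066) and H05080_B with -0.92 (adjusted p = 1.5e-04). Both were also called at 18 h without lactic acid replicate 3 at 42 h (adjusted p = 0.0288 and 0.0196). At 18 h every lactic acid library was below every control library in all 100 genes (39.4% of all genes), and at 42 h every lactic acid library was above every control library in 91 (30.2% of all genes). Both separations held in 91 (5.92% of all genes). In the other 9 genes, which included D04720_A, K00520_N, I05530_A, D06410_A and O02350_A, the lactic acid libraries at 42 h overlapped the control.

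**Figure D2:**
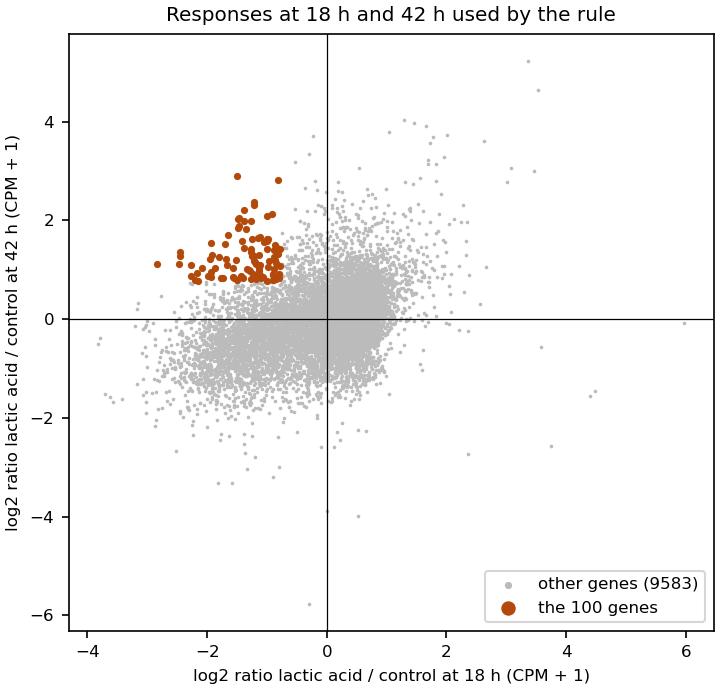
Log2 ratio of lactic acid over control of the group means (CPM + 1) at 18 h (x axis) and 42 h (y axis); each point is a gene, with the 100 genes in orange and the other genes in grey. The 100 genes fill the upper left corner by construction, from 0.78 outward on both axes.

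The limit of the list was not a gap. The last genes inside it were C02070_A (smaller ratio 0.782), D01140_B (0.778) and G01660_A (0.776), the latter a homolog of the phosphate transporter genes PHO87 and PHO90. The first genes outside were H06100_N (0.774), C03410_A (0.773), a homolog of the mRNA 3' end processing gene HRP1, and C02020_A (0.766). A name from S. cerevisiae was at hand for 38 of the 100 genes, so the account by function below covers a minority of them.

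The largest named group were chaperones, with 8 genes. They were copies A and B of SSA2, an Hsp70 of the cytosol, of SSE1/SSE2, the nucleotide exchange factor of Hsp70, of HSP60, the chaperonin of the mitochondrial matrix, and of BTN2/CUR1, which sort misfolded proteins into deposits. SSA2 was the most abundant. L05000_B (SSA2) had 2151 and 2348 CPM without and 412, 353 and 467 CPM with lactic acid at 18 h, then 981, 995 and 1020.4 CPM without and 2542, 2188 and 2951 CPM with it at 42 h. Its lowest value in lactic acid at 42 h was above every control value at 42 h and its highest value in lactic acid at 18 h was below every control value, with log2 fold changes of -2.45 ± 0.17 and 1.36 ± 0.16 (approximate SE). D04220_A (SSA2) had 2504 and 2643 CPM without and 333, 326 and 425 CPM with lactic acid at 18 h, then 1222, 1268 and 1331 CPM without and 3519.7, 2234 and 2555 CPM with it at 42 h, with log2 fold changes of -2.83 ± 0.20, the lowest of all 100 genes at 18 h, and 1.12 ± 0.18.

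Both HSP60 genes followed the same course. J05510_A had 310.1 and 443 CPM without and 74.7, 71.9 and 101 CPM with lactic acid at 18 h, then 343, 357 and 353 CPM without and 758, 542 and 729 CPM with it at 42 h. Control lay between the lactic acid values of 18 h and those of 42 h at both times. The log2 fold changes were -2.19 ± 0.20 and 0.95 ± 0.18 for J05510_A and -1.94 ± 0.21 and 0.85 ± 0.19 for L01470_B. For SSE1/SSE2, E03130_A had 944 and 946 CPM without and 221, 192 and 203 CPM with lactic acid at 18 h, then 336, 370.4 and 379.7 CPM without and 692, 569 and 635 CPM with it at 42 h. Its highest group was control at 18 h, and the same held for D01010_B, whose group means were 991 CPM without and 223 CPM with lactic acid at 18 h and 377 and 649 CPM at 42 h.

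BTN2/CUR1 was less abundant. A07690_B had 31.7 and 34.4 CPM without and 8.42, 8.03 and 7.30 CPM with lactic acid at 18 h, then 77.2, 70.5 and 58.7 CPM without and 125, 127 and 358 CPM with it at 42 h. Here lactic acid replicate 3 at 42 h, not replicate 1, was far above the others, and the log2 fold changes were -2.06 ± 0.40 and 1.56 ± 0.33, the latter 0.86 without replicate 3. J03990_A, the A copy, showed the same replicate on top, with 103, 105 and 281 CPM in lactic acid against 73.6, 69.3 and 59.4 CPM in control at 42 h. Its log2 fold change at 42 h was 1.27, and 0.60 without replicate 3. At 18 h it had 49.8 and 57.2 CPM without and 15.5, 13.7 and 14.9 CPM with lactic acid.

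Of 41 tested genes on a list of chaperones and heat shock proteins (26 of 53 names matched), 22 were lower and 5 higher at 18 h, and 17 were higher and 8 lower at 42 h, with median log2 fold changes of -0.72 and 0.40, the latter 0.083 with library totals. Over all genes 35.2% were lower and 35.5% higher at 18 h, and 28.2% were higher and 33.2% lower at 42 h. Both lower at 18 h and higher at 42 h were 4.3% of all genes. The 8 chaperones among the 100 genes were chosen for this pattern and raise the counts of the list. Of the 33 tested chaperones outside the 100 genes, 14 were lower at 18 h and 9 were higher at 42 h. Lower at 18 h and higher at 42 h were 11 of the list, of which 8 are among the 100 genes. The other 3 were A03620_N, a homolog of the Hsp90 genes HSC82 and HSP82, with -2.78 ± 0.21 (adjusted p = 1.00e-06) at 18 h and, at 42 h, 0.48 ± 0.19 (adjusted p = 0.0442), M01530_B, a copy of the Hsp90 cochaperone gene STI1, with -1.89 ± 0.21 (adjusted p = 1.36e-05) and 0.71 ± 0.19 (adjusted p = 0.00635), and B07710_A, a homolog of the inducible Hsp70 genes SSA3 and SSA4, with -0.71 ± 0.28 (adjusted p = 0.0413) and 1.45 ± 0.25 (adjusted p = 4.31e-04). Chaperones for which this did not hold included both copies of CCT7, a subunit of the cytosolic chaperonin. C06140_A changed by -2.54 ± 0.12 (adjusted p = 5.42e-08) at 18 h and, at 42 h, by -1.28 ± 0.11 (adjusted p = 4.10e-06), lower at both times. The call of A03620_N at 42 h was lost without any 1 of the control libraries at 42 h, lactic acid replicate 1 at 18 h or lactic acid replicate 1 or 3 at 42 h (adjusted p = 0.0706 to 0.141). That of B07710_A at 18 h was lost without control replicate 3 at 18 h, any lactic acid library at 18 h or any control library at 42 h (adjusted p = 0.0544 to 0.244). With library totals A03620_N, M01530_B and B07710_A each lost 1 call. A03620_N lost its own at 42 h in limma-voom, 0.46 (adjusted p = 0.0554), and with all 12 libraries, 0.55 (adjusted p = 0.125), and B07710_A lost its own at 18 h with RLE scaling, -0.62 (adjusted p = 0.075), with all 12 libraries, -0.53 (adjusted p = 0.115), and with the length trend removed, -0.32 (adjusted p = 0.384).

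MET13, for the methylenetetrahydrofolate reductase that supplies the methyl group of methionine, was in the list with both copies. M04240_B had 189 and 224 CPM without and 69.2, 73.7 and 75.99 CPM with lactic acid at 18 h, then 74.6, 77.6 and 75.3 CPM without and 390.1, 280.3 and 272 CPM with it at 42 h. E01670_A had 183 and 216 CPM without and 81.2, 81.1 and 93.2 CPM with lactic acid at 18 h, then 65.98, 64.1 and 67.1 CPM without and 377, 333 and 323 CPM with it at 42 h. In control both copies were lower at 42 h than at 18 h, and with lactic acid both were higher at 42 h, so that their highest group was lactic acid at 42 h. The log2 fold changes were -1.50 ± 0.15 and 2.05 ± 0.14 for M04240_B and -1.23 ± 0.12 and 2.39 ± 0.12 for E01670_A.

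No other gene of the pathway on hand met both calls. The list of sulfate assimilation, methionine and one-carbon metabolism had 57 tested genes (32 of 49 names matched). Of these, 36 were lower and 6 higher at 18 h (35.2% and 35.5% of all genes). At 42 h 14 were higher and 24 lower (28.2% and 33.2% of all genes). Both MET13 genes were the only ones lower at 18 h and higher at 42 h. The list medians were -1.08 and -0.19, the latter -0.50 with library totals. I04930_A, a copy of the methionine synthase gene MET6, had group means of 8689 CPM without and 2240.1 CPM with lactic acid at 18 h and 2082 and 1018 CPM at 42 h, with -1.96 ± 0.17 (adjusted p = 2.68e-06) and -1.03 ± 0.16 (adjusted p = 1.66e-04), the latter not called with all 12 libraries, -0.96 (adjusted p = 0.0825). FAU1, for the enzyme that returns 5-formyltetrahydrofolate to the folate cycle, was higher at 42 h in A09930_B by 2.05 ± 0.23 (adjusted p = 1.94e-05), with -0.39 ± 0.23 (adjusted p = 0.146) at 18 h, a value past the threshold with the length trend removed, -0.82 (adjusted p = 0.0113), and without lactic acid replicate 3 at 42 h, -0.41 (adjusted p = 0.0485).

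J05790_A and M05170_B, homeologs annotated as related to the synaptic vesicle transporter SVOP of the major facilitator superfamily, had the highest log2 fold changes at 42 h of all 100 genes, 2.91 ± 0.27 and 2.81 ± 0.27. J05790_A had 16.3 and 11.9 CPM without and 3.91, 5.01 and 4.04 CPM with lactic acid at 18 h, then 264, 267 and 247 CPM without and 2713, 1984 and 1146 CPM with it at 42 h. M05170_B had 11.6 and 10.5 CPM without and 4.97, 6.11 and 6.44 CPM with lactic acid at 18 h, then 418, 431 and 379.8 CPM without and 4054, 2936 and 1648 CPM with it at 42 h. With lactic acid at 18 h both were under 10 CPM, as were 25 of the 100 genes, and control alone was more than 10-fold higher at 42 h than at 18 h.

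C00620_A and K00530_B, homeologs annotated as related to the sugar transporter STL1, a glycerol and proton symporter in S. cerevisiae, had similar courses. C00620_A had 35.4 and 49.02 CPM without and 15.3, 15.2 and 22.3 CPM with lactic acid at 18 h, then 843, 855 and 729 CPM without and 5416, 4065 and 2589.9 CPM with it at 42 h. K00530_B had 32.4 and 42.7 CPM without and 13.99, 14.1 and 17.8 CPM with lactic acid at 18 h, then 972, 981 and 824 CPM without and 4044, 2766 and 1744 CPM with it at 42 h. Their log2 fold changes were -1.27 ± 0.29 and 2.31 ± 0.26 and -1.30 ± 0.29 and 1.62 ± 0.26. Next to each lies a gene annotated as STL1 itself, which is not in the list. C00630_A (chromosome 3, 127245 to 129041) follows C00620_A (chromosome 3, 124219 to 126198), and K00540_B (chromosome 11, 97483 to 99282) follows K00530_B (chromosome 11, 94457 to 96436). Both were higher with lactic acid at both times. C00630_A had 7.27 and 5.80 CPM without and 17.4, 17.99 and 6.83 CPM with lactic acid at 18 h, then 1609, 1563 and 1348 CPM without and 8486, 5948 and 3537 CPM with it at 42 h, with 1.12 ± 0.43 (adjusted p = 0.036) and 1.99 ± 0.35 (adjusted p = 4.62e-04). K00540_B changed by 1.71 ± 0.33 (adjusted p = 7.02e-04) at 18 h and, at 42 h, by 2.33 ± 0.26 (adjusted p = 2.03e-05). The difference of their responses between the times was 0.87 ± 0.54 (adjusted p = 0.193) and 0.62 ± 0.41 (adjusted p = 0.219). Neighbouring genes of related annotation thus lay in opposite directions at 18 h and in the same direction at 42 h. The 18 h values of C00630_A overlapped, with lactic acid replicate 3 between both controls, and its call at 18 h was lost without control replicate 1 or 3 or lactic acid replicate 1 or 2 of that time (adjusted p = 0.0837 to 0.185). Both STL1 genes were chosen after their values were seen.

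The list of glucose sensing, glucose repression and hexose transport gave 2 of the 100 genes. B02630_A (VHS1/SKS1, for a protein kinase linked to growth on low glucose) had 525 and 536 CPM without and 276, 263 and 266 CPM with lactic acid at 18 h, then 491, 490.3 and 512 CPM without and 1139, 959 and 1009.5 CPM with it at 42 h, with log2 fold changes of -0.98 ± 0.12 and 1.06 ± 0.11. Its lactic acid values at 18 h lay close together, far from those of control. H02580_B (MTH1/STD1, for a regulator linked to glucose sensing) had 27.8 and 34.4 CPM without and 14.9, 16.8 and 16.9 CPM with lactic acid at 18 h, and -0.94 ± 0.21 and 0.93 ± 0.18 as log2 fold changes. Of 47 tested genes of the list (33 of 62 names matched), 33 were lower and 13 higher at 18 h (35.2% and 35.5% of all genes). At 42 h 20 were higher and 19 lower (28.2% and 33.2% of all genes). Both lower at 18 h and higher at 42 h were 8 (4.3% of all genes), 2 of them among the 100 genes. Without the 2 chosen genes, 31 of 45 were lower at 18 h, 18 were higher at 42 h and 6 were both. The medians of the whole list were -0.94 and 0.063, the latter -0.28 with library totals.

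Phospholipid metabolism was represented by 4 genes. PLB2, for a phospholipase B that removes fatty acids from lysophospholipids at the cell surface, was in the list with both copies and was among its most abundant genes. G04620_B had 3526 and 2658 CPM without and 945, 887 and 574 CPM with lactic acid at 18 h, then 1853, 1835 and 1664 CPM without and 5865, 3741 and 2834 CPM with it at 42 h. B02000_A had 3443 and 2449 CPM without and 948, 893 and 576 CPM with lactic acid at 18 h, then 1834, 1790.1 and 1665 CPM without and 5312, 3037 and 2563 CPM with it at 42 h. The values of both copies moved together from library to library, with control replicate 3 below replicate 1 and lactic acid replicate 3 lowest in its group at each time. Their log2 fold changes were -1.95 ± 0.29 and 1.22 ± 0.27 and -1.87 ± 0.30 and 1.04 ± 0.28.

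A02190_B (PAH1, for the phosphatidate phosphatase that turns phospholipid precursors into storage lipid) had 35.7 and 33.6 CPM without and 10.3, 11.7 and 8.54 CPM with lactic acid at 18 h, then 108, 113 and 94.7 CPM without and 279, 205 and 198 CPM with it at 42 h. H02540_B (GPT2, for an acyltransferase of the first step of glycerolipid synthesis) had 39.9 and 53.05 CPM without and 20.7, 20.4 and 21.2 CPM with lactic acid at 18 h, then 117, 115 and 112 CPM without and 289, 235 and 190.3 CPM with it at 42 h. In each the groups did not overlap, and control was higher at 42 h than at 18 h. The log2 fold changes were -1.76 ± 0.18 and 1.11 ± 0.15 for PAH1 and -1.17 ± 0.17 and 1.05 ± 0.15 for GPT2. The list of phospholipid metabolism had 37 tested genes (22 of 48 names matched). Of these, 17 were lower and 11 higher at 18 h (35.2% and 35.5% of all genes). At 42 h 18 were higher and 8 lower (28.2% and 33.2% of all genes). Both lower at 18 h and higher at 42 h were 6 (4.3% of all genes), 4 of them among the 100 genes. Without the 4 chosen genes, 13 of 33 were lower at 18 h, 14 were higher at 42 h and 2 were both. The medians of the whole list were -0.29 and 0.33, and -0.077 and 0.004 with library totals.

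Enzymes that yield NADPH were a further group of 4. MAE1, for the mitochondrial malic enzyme that turns malate into pyruvate, was present with both copies. K02300_B had 341 and 261 CPM without and 86.8, 94.1 and 54.6 CPM with lactic acid at 18 h, then 334, 358 and 305 CPM without and 1342, 666 and 449.9 CPM with it at 42 h. D04720_A had 416 and 265 CPM without and 63.1, 70.6 and 48.6 CPM with lactic acid at 18 h, then 245, 258 and 245 CPM without and 1019, 387 and 229.9 CPM with it at 42 h, where 1 lactic acid value at 42 h lay below every control value. The log2 fold changes were -1.94 ± 0.37 and 1.30 ± 0.33 for K02300_B and -2.49 ± 0.46 and 1.13 ± 0.41 for D04720_A. Without lactic acid replicate 1 at 42 h the value of that time was 0.29 for D04720_A and 0.73 for K02300_B. F01550_A (GND1/GND2, for 6-phosphogluconate dehydrogenase) had 1855 and 1873 CPM without and 985, 825 and 902 CPM with lactic acid at 18 h, then 1108, 1052 and 1017 CPM without and 3549, 3368 and 2449 CPM with it at 42 h. B00260_A (ZWF1, for glucose-6-phosphate dehydrogenase, the first step of the pentose phosphate pathway) had 268 and 223 CPM without and 120.3, 116 and 115 CPM with lactic acid at 18 h, then 199, 206 and 204 CPM without and 436, 354 and 307 CPM with it at 42 h. Both were highest in lactic acid at 42 h, with log2 fold changes of -1.04 ± 0.17 and 1.56 ± 0.16 for GND1/GND2 and -1.07 ± 0.15 and 0.85 ± 0.13 for ZWF1.

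Their homeologs lay outside the list. D02800_B (GND1/GND2) had 2169 and 2062 CPM without and 2472, 2459 and 2589.8 CPM with lactic acid at 18 h, then 1137, 1177 and 1118 CPM without and 4113, 4379 and 3906 CPM with it at 42 h. It was not called at 18 h, with 0.24 ± 0.14 (adjusted p = 0.14), and was higher at 42 h, with 1.85 ± 0.13 (adjusted p = 9.51e-07). G06360_B (ZWF1) was lower at 18 h, with -1.40 ± 0.20 (adjusted p = 8.95e-05), and was not called at 42 h, with 0.36 ± 0.18 (adjusted p = 0.102). These calls depended on the settings. D02800_B was higher at 18 h with library totals, 0.46 (adjusted p = 0.0267), in DESeq2, 0.33 (adjusted p = 0.00269), and with the length trend removed, 0.38 (adjusted p = 0.0205). G06360_B was higher at 42 h without lactic acid replicate 3 of that time, 0.50 (adjusted p = 0.0201), and in DESeq2, 0.40 (adjusted p = 0.0353). The list of pentose phosphate pathway and NADPH supply had 28 tested genes (22 of 39 names matched). Of these, 16 were lower and 4 higher at 18 h (35.2% and 35.5% of all genes). At 42 h 14 were higher and 5 lower (28.2% and 33.2% of all genes). Both lower at 18 h and higher at 42 h were 7 (4.3% of all genes), 4 of them genes chosen for this pattern. Without the 4 chosen genes, 12 of 24 were lower at 18 h, 10 were higher at 42 h and 3 were both. The medians of the whole list were -0.89 and 0.44, the latter 0.098 with library totals.

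A09670_B (IGD1, an inhibitor of the glycogen debranching enzyme in S. cerevisiae) had 5.37 and 6.45 CPM without and 1.46, 1.44 and 2.02 CPM with lactic acid at 18 h, then 298, 317 and 276 CPM without and 1840.4, 1198 and 1112 CPM with it at 42 h. Its level with lactic acid was 844-fold higher at 42 h than at 18 h by the group means, the largest change with time among the 100 genes. Its log2 fold changes were -1.86 ± 0.27 and 2.22 ± 0.19. O03800_A (GDB1, for the debranching enzyme itself, named here after its values were seen) had 126 and 155 CPM without and 27.5, 28.1 and 29.7 CPM with lactic acid at 18 h, then 814, 806 and 757 CPM without and 2187, 1297 and 876 CPM with it at 42 h, with log2 fold changes of -2.30 ± 0.29 and 0.87 ± 0.25. A02720_B (ADK1, for the adenylate kinase that balances ATP, ADP and AMP) had 276 and 219 CPM without and 54.7, 63.1 and 67.5 CPM with lactic acid at 18 h, then 68.4, 77.9 and 77.8 CPM without and 203, 104 and 107 CPM with it at 42 h. It was highest in control at 18 h.

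Among regulators, B04170_A (ROX1, the repressor of hypoxic genes) had 174 and 137 CPM without and 25.4, 32.00 and 25.7 CPM with lactic acid at 18 h, then 168, 185 and 164 CPM without and 754, 239.8 and 258 CPM with it at 42 h. The high group mean in lactic acid at 42 h came mainly from replicate 1, since the other replicates were at 239.8 and 258 CPM. The log2 fold changes were -2.49 ± 0.40 and 1.28 ± 0.35. Its homeolog G02450_B, outside the list, was lower at 18 h, with -3.14 ± 0.38 (adjusted p = 2.79e-05), and was not called at 42 h, with -0.11 ± 0.32 (adjusted p = 0.777). Without lactic acid replicate 1 at 42 h it was lower there too, -0.77 (adjusted p = 7.34e-04). C03550_A (MSN1, a transcriptional activator of invertase, glucoamylase and iron uptake genes) had 38.3 and 29.6 CPM without and 16.1, 17.8 and 15.8 CPM with lactic acid at 18 h, then 120.4, 139.8 and 134 CPM without and 728, 428 and 533 CPM with it at 42 h, with all lactic acid libraries well above control at 42 h and log2 fold changes of -1.03 ± 0.20 and 2.10 ± 0.18.

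The list of heme synthesis and oxygen response, which holds ROX1, had 21 tested genes (13 of 47 names matched), of which 10 were lower and 7 higher at 18 h, while at 42 h 8 were higher and 7 lower, with medians of -0.25 and 0.21, and -0.036 and -0.15 with library totals. On the list of iron and copper uptake, which holds MSN1, 12 of 48 genes (29 of 52 names matched) were lower and 21 higher at 18 h. At 42 h 24 were higher and 10 lower, with medians of 0.32 and 0.40 for both times, the latter 0.06 with library totals. Beside both lists, 35.2% of all genes were lower and 35.5% higher at 18 h, and 28.2% were higher and 33.2% lower at 42 h.

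IFM1, for the initiation factor of mitochondrial translation, was in the list with both copies. A09660_B had 16.9 and 21.2 CPM without and 6.77, 6.52 and 5.36 CPM with lactic acid at 18 h, then 315, 223 and 211 CPM without and 1639.7, 702 and 347 CPM with it at 42 h. B09620_A had 18.2 and 21.8 CPM without and 7.43, 6.66 and 5.67 CPM with lactic acid at 18 h, then 354, 233 and 209 CPM without and 1661, 813 and 498 CPM with it at 42 h. The copies were close in most libraries and furthest apart in lactic acid replicate 3 at 42 h. Replicate 1 was far above the other lactic acid replicates at 42 h in both, and control at 42 h was more than 10-fold above control at 18 h. The log2 fold changes were -1.62 ± 0.50 and 1.85 ± 0.42 and -1.60 ± 0.42 and 1.90 ± 0.36. Of 99 tested genes of their list (51 of 116 names of mitochondrial protein synthesis matched), 21 were lower and 57 higher at 18 h (35.2% and 35.5% of all genes). At 42 h 15 were higher and 46 lower (28.2% and 33.2% of all genes). The list medians were 0.45 at 18 h and -0.31 at 42 h, the latter -0.63 with library totals. Only both IFM1 genes were lower at 18 h and higher at 42 h.

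C03570_A (TRF5/PAP2, for the enzyme that tags RNA with adenosines for decay in the nucleus) had 92.5 and 84.8 CPM without and 33.2, 38.4 and 40.1 CPM with lactic acid at 18 h, then 50.7, 52.3 and 54.5 CPM without and 129.9, 85.2 and 85.4 CPM with it at 42 h. It was the only one of the 100 genes on the list of ribosome assembly and pre-rRNA processing, of whose 138 tested genes (72 of 130 names matched) 58 were lower and 18 higher at 18 h, and 4 were higher and 101 lower at 42 h. The medians of that list were -0.16 at 18 h, which was 0.057 with library totals, and -0.87 at 42 h. B05810_A (PXA1, for a subunit of the peroxisomal importer of long-chain fatty acids) had 22.2 and 33.5 CPM without and 11.9, 10.6 and 14.4 CPM with lactic acid at 18 h, then 894, 775 and 693 CPM without and 1660.1, 1587 and 1157 CPM with it at 42 h, with control far higher at 42 h than at 18 h. On the list of peroxisome and fatty acid oxidation, 15 of 38 genes (21 of 50 names matched) were lower and 11 higher at 18 h, and 18 were higher and 10 lower at 42 h. Its medians were -0.10 and 0.22, and 0.11 and -0.10 with library totals, so their signs depend on the scaling. Beside the ribosome and peroxisome lists, 35.2% of all genes were lower and 35.5% higher at 18 h, and 28.2% were higher and 33.2% lower at 42 h.

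**Figure D3:**
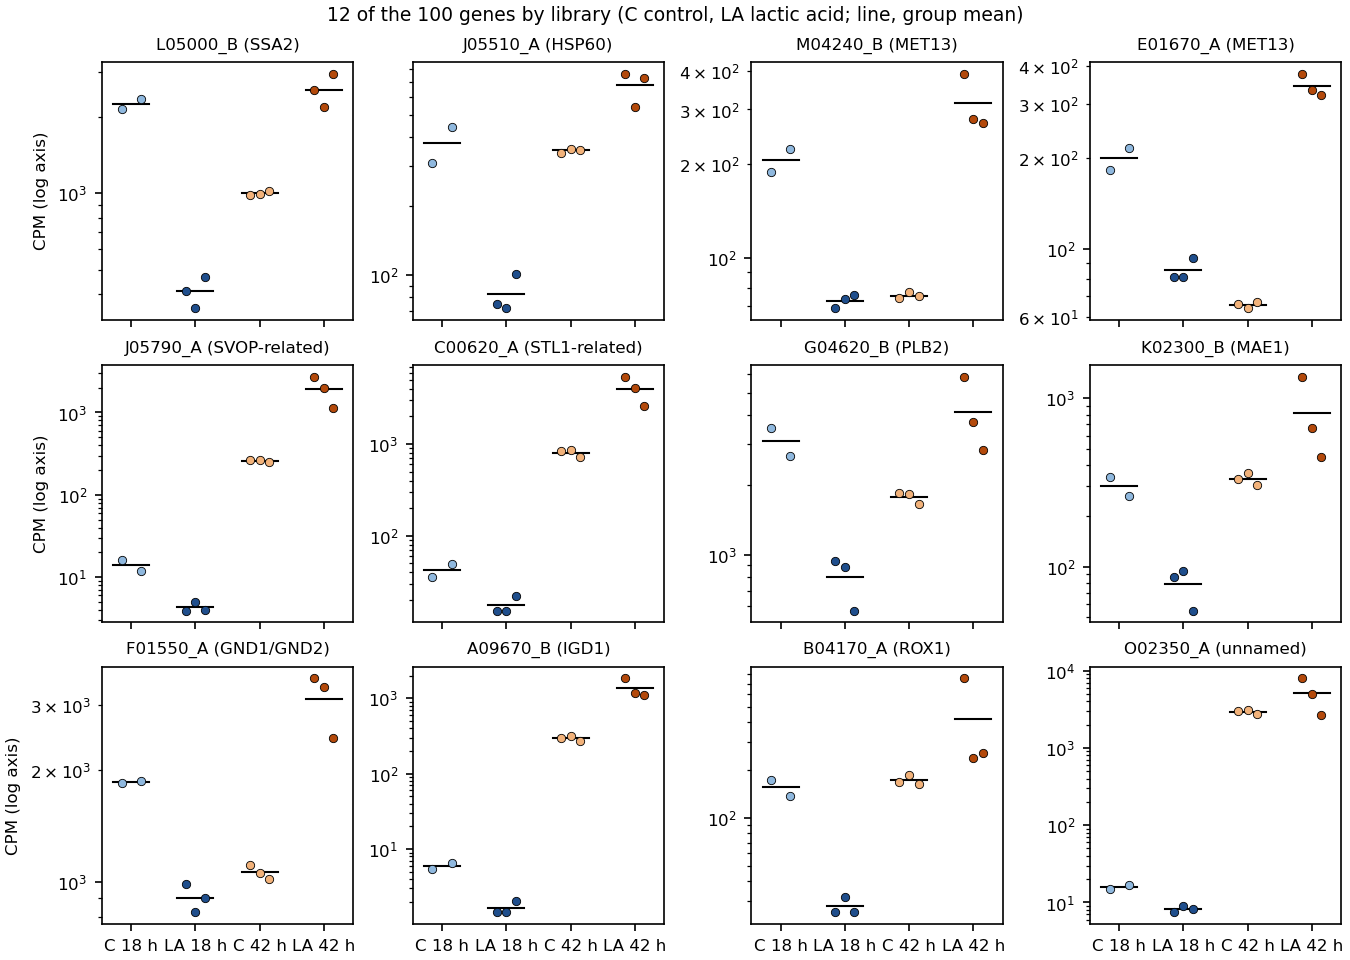
CPM (y axis, log scale) of 12 of the 100 genes in each of 11 libraries, by group; points are libraries and lines group means. In SSA2 (L05000_B) lactic acid lies below control at 18 h, from 353 to 467 CPM, and above it at 42 h, and in O02350_A the lowest lactic acid value at 42 h, 2687 CPM, lies below every control value.

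Many of the highest-ranked genes carry no S. cerevisiae name in the annotation at hand and are given by their identifier. The first in rank, J02700_B, had 31.4 and 16.6 CPM without and 6.77, 7.69 and 6.36 CPM with lactic acid at 18 h, then 100.4, 107 and 90.4 CPM without and 653, 207 and 125 CPM with it at 42 h. Its lactic acid values at 42 h spanned a wide range, with replicate 1 highest, and its log2 fold changes were -1.78 ± 0.56 and 1.72 ± 0.47. J03870_A, a homolog of SPO23, a gene named for sporulation, had 18.1 and 15.2 CPM without and 3.85, 5.36 and 4.04 CPM with lactic acid at 18 h, then 338, 334 and 278 CPM without and 1757, 584 and 381 CPM with it at 42 h, with replicate 1 highest again.

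L00160_A had 80.4 and 70.4 CPM without and 23.7, 26.6 and 29.7 CPM with lactic acid at 18 h, then 159.5, 159 and 140.1 CPM without and 1084, 505 and 308 CPM with it at 42 h. E00500_A had 92.4 and 81.6 CPM without and 28.5, 33.9 and 38.4 CPM with lactic acid at 18 h, then 199.7, 208 and 182 CPM without and 1157, 574 and 383 CPM with it at 42 h. These genes have the same coding length of 2745 bp and the same order of libraries within lactic acid, at 18 h with replicate 1 lowest and at 42 h with replicate 1 highest. Log2 fold changes were -1.50 ± 0.38 and 2.05 ± 0.34 for L00160_A and -1.37 ± 0.34 and 1.84 ± 0.31 for E00500_A. Both carry the label A, so they are not a pair of an A and a B copy. How they are related was not at hand. H01170_B had 41.9 and 43.3 CPM without and 12.3, 14.7 and 19.2 CPM with lactic acid at 18 h, then 69.9, 65.4 and 61.2 CPM without and 346, 131 and 121 CPM with it at 42 h. E06030_A had 37.5 and 35.7 CPM without and 10.7, 14.6 and 18.8 CPM with lactic acid at 18 h, then 52.4, 49.6 and 47.6 CPM without and 319, 141 and 139.6 CPM with it at 42 h. The latter pair of genes again shared the order of libraries within lactic acid, but not in control at 18 h. Their log2 fold changes were -1.47 ± 0.38 and 1.61 ± 0.33 for H01170_B and -1.32 ± 0.33 and 2.005 ± 0.29 for E06030_A. The order within lactic acid was not particular to these genes. Replicate 1 was highest at 42 h in 86 genes of the list. K03980_B and O03800_A (GDB1), among others, had the whole order of H01170_B and E06030_A at both times. Of the other unnamed genes among the first 20, I05520_A, M04030_B, K01280_B and K02290_B had log2 fold changes from -1.49 to -1.29 at 18 h and from 1.38 to 2.01 at 42 h.

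The shared pattern hid different courses with time. In control, 39 of the 100 genes were at least 2-fold higher at 42 h than at 18 h by their group means, 9 were at least 2-fold lower, and 52 changed by less. With lactic acid 99 genes were higher at 42 h than at 18 h. The exception was C07730_N, with group means of 33.8 CPM without and 18.9 CPM with lactic acid at 18 h and 5.30 and 10.8 CPM at 42 h. In the first class the median fold with time was 7.24 in control and 47.3 in lactic acid, and it held the STL1-related and SVOP-related transporters, IFM1, IGD1, PXA1 and PAH1. In the class of little change the medians were 1.06 and 5.47, with HSP60, MAE1, PLB2, ROX1, GND1/GND2 and ZWF1. In the class of lower control the medians were 0.371 and 3.08, with SSA2, SSE1/SSE2, MET13 and ADK1. Lactic acid at 42 h was the highest of the 4 groups in 95 genes and lactic acid at 18 h the lowest in 97. Control at 18 h was the highest in the other 5 genes, among them both SSE1/SSE2 copies and ADK1 (A02720_B). The largest fold with time in control, 184, was that of O02350_A, with 15.1 and 16.9 CPM without and 7.43, 9.13 and 8.15 CPM with lactic acid at 18 h, then 3027, 3073 and 2750.0 CPM without and 7932, 5042 and 2687 CPM with it at 42 h. These changes with time use the group means that chose the genes and are a description.

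**Figure D4:**
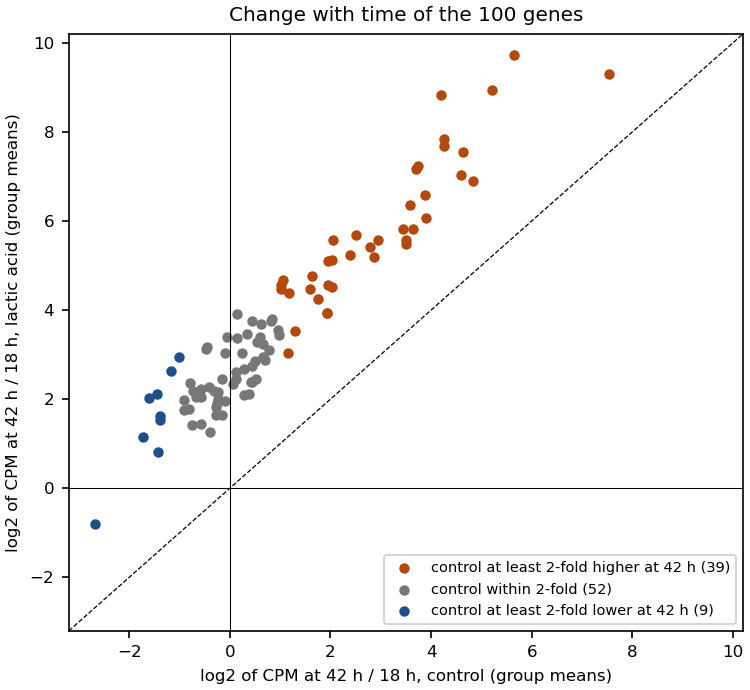
Log2 ratio of the group mean CPM at 42 h over 18 h in control (x axis) and in lactic acid (y axis) for the 100 genes, coloured by the change in control; the dashed line marks equal change. All points lie above that line by construction, 39 of them with control at least 2-fold higher at 42 h and 9 with control at least 2-fold lower.

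For 57 of the 100 genes the homeolog was known, and in 26 of them it was in the list as well, giving 13 pairs. Besides SSA2, SSE1/SSE2, HSP60, BTN2/CUR1, MET13, MAE1, PLB2, IFM1 and both transporter pairs these were the unnamed pairs D05110_A and K02670_B, E01455_A and M04020_B, and D06410_A and K03980_B. Within a pair the log2 fold changes of both copies differed by 0.019 to 0.78 at 18 h and by 0.019 to 0.69 at 42 h. The share of the A copy in the level per coding length of the pair ranged from 0.387 to 0.686 over the pairs and groups. In SSE1/SSE2 the A share was 0.488, 0.479, 0.49 and 0.493 in the order control, lactic acid at 18 h, control, lactic acid at 42 h. It shifted with time in a few pairs. In D06410_A and K03980_B the A share was 0.455 in control at 18 h and 0.686 in control at 42 h, and in J03990_A and A07690_B (BTN2/CUR1) it was 0.623 and 0.501. Reads that fit both copies equally were not counted, so each copy's counts rest on the stretches where the copies differ.

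The other 31 genes with a known homeolog had that homeolog outside the list. The members were chosen on their own counts and not on those of these partners, although a partner with the pattern as strong as the list would have been in it. Homeologs were read in part from the study's lists of genes called with lactic acid, so called genes may be covered better. Of the 31, 25 (80.6%) were lower at 18 h (35.2% of all genes) and none higher, 17 (54.8%) were higher at 42 h (28.2% of all genes) and 2 lower, and 11 (35.5%) were both lower at 18 h and higher at 42 h (4.3% of all genes). The difference of the response between the times was called in 30 (96.8%, beside 28.9% of all genes with a higher response at 42 h), always with the higher response at 42 h. The median log2 fold changes of the partners were -1.17 at 18 h and 0.58 at 42 h, those of their copies in the list were -1.18 and 1.06, and those of all genes 0.068 and -0.059. Without lactic acid replicate 1 at 42 h the partners' median at 42 h was 0.20 and 13 were higher.

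The count of partners with both calls was sensitive. It was 1 with library totals, 7 without control replicate 1 at 18 h, 7 without lactic acid replicate 1 at 18 h, 7 without lactic acid replicate 2 at 18 h, 6 without control replicate 1 at 42 h, 6 without control replicate 2 at 42 h, 5 without control replicate 3 at 42 h, and 21 without lactic acid replicate 3 at 42 h. The count with a called difference between the times was 27 with library totals and 29 to 31 with any library left out.

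The partners fell into several kinds. A group of 11 met both calls, such as B09630_A (IGD1), which had 6.45 and 5.68 CPM without and 3.78, 3.71 and 5.05 CPM with lactic acid at 18 h, then 325, 371 and 335 CPM without and 1602, 1199 and 1281 CPM with it at 42 h. Its response was -0.54 ± 0.20 (adjusted p = 0.0284) at 18 h and, at 42 h, 1.99 ± 0.15 (adjusted p = 1.48e-06), and their difference was 2.52 ± 0.25 (adjusted p = 2.06e-05). E01460_A, the partner of M04030_B, changed by -1.62 ± 0.23 (adjusted p = 1.01e-04) and 0.75 ± 0.19 (adjusted p = 0.00538). A further 12 partners were lower at 18 h and not called at 42 h. For the SPO23 partner A07570_B the values were -1.68 ± 0.59 (adjusted p = 0.0231) and 0.70 ± 0.44 (adjusted p = 0.183), for C01370_A, the partner of K01280_B, -1.69 ± 0.25 (adjusted p = 1.23e-04) and 0.23 ± 0.22 (adjusted p = 0.381), and for D04700_A, the partner of K02290_B, -2.41 ± 0.33 (adjusted p = 7.16e-05) and 0.31 ± 0.29 (adjusted p = 0.376). The ROX1 partner G02450_B belongs here too. Another 6 were not called at 18 h and were higher at 42 h, among them D02800_B (GND1/GND2). The 2 partners lower at both times were A02630_B, a copy of the monocarboxylate permease homolog MCH4, with -1.17 ± 0.22 (adjusted p = 6.09e-04) and -0.61 ± 0.24 (adjusted p = 0.0441), and A02730_B (TRF5/PAP2), with -1.995 ± 0.21 (adjusted p = 1.05e-05) and -0.98 ± 0.20 (adjusted p = 0.00106). A02630_B was also the partner whose difference between the times was not called, with 0.56 ± 0.33 (adjusted p = 0.168). Several of these calls depended on single libraries or on the settings. The call of B09630_A at 18 h was lost without control replicate 1 or 3 or lactic acid replicate 1 or 2 of that time (adjusted p = 0.0547 to 0.115), and also with DESeq2, -0.45 (adjusted p = 0.0545), RLE scaling, -0.45 (adjusted p = 0.0582), library totals, -0.32 (adjusted p = 0.159), all 12 libraries, -0.35 (adjusted p = 0.228), and the replicate block, -0.51 (adjusted p = 0.0609). That of A07570_B at 18 h was lost without control replicate 1 or 3 or lactic acid replicate 1 or 3 of that time (adjusted p = 0.057 to 0.0805) and with the length trend removed, -1.35 (adjusted p = 0.0579), and A07570_B was higher at 42 h without lactic acid replicate 3, 1.06 (adjusted p = 0.0179). That of A02630_B at 42 h was lost without control replicate 1 or 3 or lactic acid replicate 1 at 18 h, control replicate 2 or 3 at 42 h, or lactic acid replicate 2 or 3 at 42 h (adjusted p = 0.0511 to 0.132), with the replicate block, -0.62 (adjusted p = 0.0546), and with all 12 libraries, -0.53 (adjusted p = 0.0613). Whether a partner and its copy in the list differed was not tested here.

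**Figure D5:**
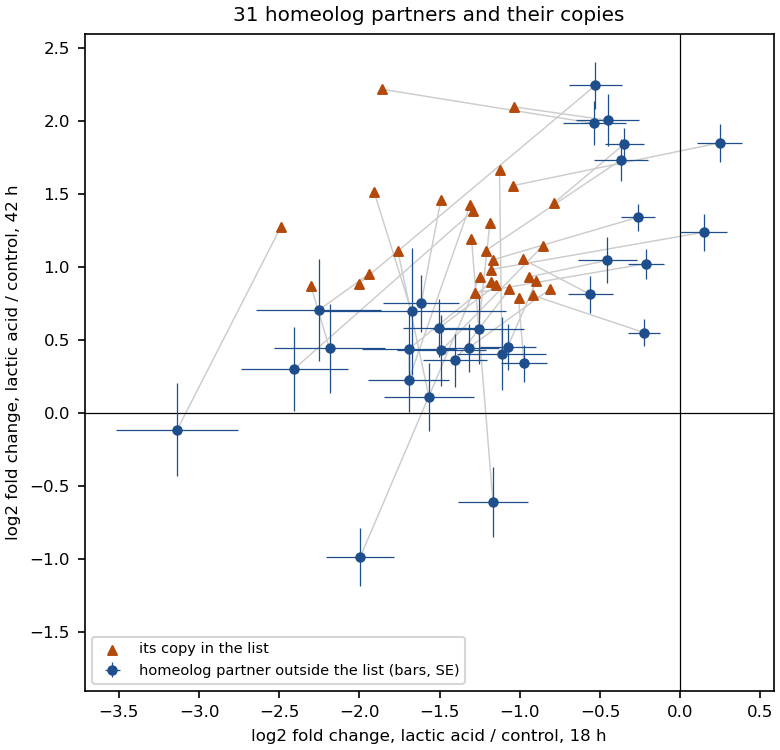
Log2 fold change of lactic acid over control at 18 h (x axis) and 42 h (y axis) of 31 homeolog partners outside the list (circles, bars are approximate SE) and of their copies in the list (triangles), joined by lines. Of the partners, 26 lie with the list, negative at 18 h and positive at 42 h, as do 14.3% of all genes. Another 2 are called lower at both times.

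Position on the chromosomes was not used by the rule. The 100 genes lay on all 16 chromosomes, with 2 to 11 on each, and none was mitochondrial. Of them, 12 were next to another of the list, in 6 adjacent pairs with 69 to 1588 bp between their coding regions (assembly ASM198439v2, strand not used). A09660_B (IFM1, chromosome 1, 1946220 to 1948226) lies beside A09670_B (IGD1, chromosome 1, 1948477 to 1948995), and their homeologs B09620_A and B09630_A follow each other in number as well, B09620_A in the list and B09630_A among the partners that met both calls. K02290_B (chromosome 11, 416223 to 417326) lies beside K02300_B (MAE1, chromosome 11, 418915 to 420882), K00520_N beside K00530_B (STL1-related), I05520_A beside I05530_A (VHS2/MLF3, for a protein linked to the cell cycle and drug tolerance in S. cerevisiae), M04020_B beside M04030_B, and O02340_A beside O02350_A. K00520_N had 35.1 and 22.5 CPM without and 3.78, 5.63 and 6.21 CPM with lactic acid at 18 h, then 20.8, 21.2 and 20.04 CPM without and 87.4, 29.3 and 18.9 CPM with it at 42 h. I05530_A had 233 and 234 CPM without and 48.8, 61.2 and 52.6 CPM with lactic acid at 18 h, then 752, 770.5 and 634 CPM without and 2650.4, 1033 and 746 CPM with it at 42 h. In both, a lactic acid value at 42 h fell within or below the control values. O02340_A and O02350_A are only 69 bp apart, and M04020_B is short, with 174 bp. For neighbours this close, reads from a transcript that runs over both could not be told apart from reads of either gene, since whether the kit kept the strand was not given.

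A further pair, C03550_A (MSN1, chromosome 3, 674648 to 675508) and C03570_A (TRF5/PAP2, chromosome 3, 676730 to 678454), had 1 gene between them, C03560_A (ADK1), the homeolog of A02720_B in the list. The same 3 genes follow each other on chromosome 1 as A02710_B, A02720_B and A02730_B (chromosome 1, 564536 to 565384, 565712 to 566389 and 566579 to 568303). Of these 6 genes 3 are in the list. C03560_A had 351 and 287 CPM without and 205, 237 and 222 CPM with lactic acid at 18 h, then 63.8, 68.2 and 70.5 CPM without and 392, 255 and 314 CPM with it at 42 h, with -0.53 ± 0.17 (adjusted p = 0.0138) and 2.25 ± 0.16 (adjusted p = 9.74e-07). A02710_B (MSN1) changed by -0.45 ± 0.20 (adjusted p = 0.0566) at 18 h and, at 42 h, by 2.01 ± 0.18 (adjusted p = 3.98e-06), and A02730_B (TRF5/PAP2) was lower at both times as given above. At 18 h C03560_A lost its call without control replicate 1, -0.40 (adjusted p = 0.108), with library totals, -0.31 (adjusted p = 0.0852), and with all 12 libraries, -0.26 (adjusted p = 0.346). A02710_B was lower without control replicate 3, -0.69 (adjusted p = 0.0237), and without any 1 lactic acid library of 42 h (adjusted p = 0.00892 to 0.0406 over these 4 settings). The same gene was lower at 18 h with the length trend removed, -0.77 (adjusted p = 0.00655), and in limma-voom, -0.43 (adjusted p = 0.0419).

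Over all 180 tested genes that lie directly beside one of the 100 and are not in the list, 91 (50.6%) were lower at 18 h (35.2% of all genes), 63 (35.0%) were higher at 42 h (28.2% of all genes), 20 (11.1%) were both (4.3% of all genes), and 106 (58.9%) had a called, higher response at 42 h than at 18 h (28.9% of all genes). This comparison was chosen after the values were seen. With library totals the counts were 3 for both calls and 60 for the difference, and 9 met both calls without control replicate 1 at 18 h. The part of transcripts that run into the next gene in these values was not tested.

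By origin the list was close to the genome, with 48 A genes (46.7% of all genes tested), 45 B genes (43.0%), 4 N genes (7.22%) and 3 without a label at hand (3.11%). The coding regions of the 100 genes were longer, with a median of 1650 bp beside 1230 bp over all genes, and their level was higher, with a median of 162 CPM over the 11 libraries beside 39.9 CPM. That level is not independent of the choice. It includes lactic acid at 42 h, the highest group in 95 of the 100 genes. After the trend of each library with coding length was removed, the rule picked 76 of the 100 genes again and the median length of the 100 genes it then picked was 1408.5 bp. The part of coding length and level in the choice was not tested further.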

How the data were processed

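The authors aligned the reads to the strain's genome allowing no mismatch (Bowtie 1.1.2) and made counts for each gene (HTSeq 0.6.0), reads with several placements being dropped. The deposited count table holds raw counts (whole numbers) of 12 libraries, and the deposited signal table holds CPM that the authors scaled with TMM factors of edgeR 3.18.1 for 11 libraries. The tables for identical genes were not used here, nor were the authors' own fold changes and p-values. Counts of 14 pseudogene and plasmid entries (0.0575 to 0.344% of the counts) were left out. The 11 libraries used held 8967267 to 17505293 counts in genes, and control replicate 2 at 18 h, with 4596 counts, was left out as the authors did.

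CPM recomputed from the counts matched the signal table for all 9683 genes that reach 1 CPM in 3 libraries of any condition (largest relative difference 4.996e-15), and the rule was applied to that table with a pseudocount of 1. The 4 groups were fitted in 1 model by edgeR 4.0.16 (quasi-likelihood test, two-sided, R 4.3.3) with a contrast for each time and another for their difference, and p-values were adjusted over all 9683 genes at a threshold of 0.05. The SE of a log2 fold change is approximate, its absolute value divided by the square root of F. The fit was also run on simulated counts with a known set of changed genes and the same fixed spread for every gene. That setting does not cover the wider spread of some genes here. Alternatives were RLE scaling, library totals, DESeq2 1.42.0, limma-voom (limma 3.58.1), other filters and pseudocounts, a replicate block, each library left out in turn, all 12 libraries, and removal of the length trend.

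Members and gene lists were chosen with earlier results of these data known. The genes named are the first 20 by rank, members on a gene list, members whose homeolog is a member, adjacent members, the partners of the first 20, and 3 genes on either side of the limit. Others were picked as examples after their values were seen. Of the 9683 genes tested, names were at hand for 3705 and homeologs for 5832, so lists and pairs are covered in part. Names and homeologs were read from the study's annotation and also from its lists of genes called with lactic acid in these same data. Called genes may thus be covered better than others, which would raise the shares of lists and partners beside those of all genes. That was not tested. Positions come from assembly ASM198439v2. Depth and replicate number limit the precision. Each group held 2 or 3 libraries, and the p-values rest on a spread estimated over all groups together. A p-value of either time thus also reflects how far the libraries of the other time lay apart.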

Additional observations from a re-analysis of the deposited data

Results flagged for a closer look

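The response to lactic acid differed between 42 h and 18 h by the test of that difference (edgeR, adjusted p below 0.05 over all genes) in 30 of the 31 homeolog partners outside the list, each with the higher response at 42 h. Over all genes 28.9% had such a called, higher response. The partners are copies of genes that were chosen for this difference. For those named in the report the difference (log2) was 2.37 for A07570_B (SPO23), 2.52 for B09630_A (IGD1), 2.37 for E01460_A, 3.02 for G02450_B (ROX1), 1.92 for C01370_A, 2.71 for D04700_A, 1.61 for D02800_B (GND1/GND2), 1.77 for G06360_B (ZWF1), 2.46 for A02710_B (MSN1), 1.01 for A02730_B (TRF5/PAP2) and 2.78 for C03560_A (ADK1). All groups had 2 or 3 libraries, too few to look for single outlying samples by a set rule.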

How the results depend on the processing

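The counts of members called and of partners lower at 18 h, higher at 42 h or with a called difference stayed within 1.5 times under every alternative. With library totals, partners with both calls fell to 1, all genes with both calls to 144 from 416, genes beside a member with both calls to 3 from 20 and with a called difference to 60 from 106. Higher at 42 h were then 9 genes of the methionine list, 11 of the peroxisome list, 9 of the NADPH list, 11 of the phospholipid list and 8 of the mitochondrial list. With all 12 libraries, where control replicate 2 has 4596 counts, partners with both calls were 6, genes beside a member with both calls 13, and the rule picked 50 of the 100 genes again. With 1 library left out in turn, partners with both calls ranged from 5 to 21 and genes beside a member with both calls from 9 to 26. When a control library of 18 h is dropped, the single one left is taken to vary like the other groups.

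With the replicate block, 95 members and 9 partners had both calls and 382 of all genes. Whether the replicate numbers pair the samples was not settled. The correlations of same-numbered control and lactic acid libraries were 0.185 and 0.294 at 18 h and 0.151, -0.112 and 0.153 at 42 h. Those of 18 h cannot decide it, since with 2 control libraries the values of 1 mirror those of the other. At 42 h the same-numbered lactic acid library gave the highest value for control replicates 1 and 3 but not for replicate 2.

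Of 3318 single-gene values over 83 named genes, 3173 kept direction and call, 114 lost the call, 23 gained it and 8 changed sign at 42 h, none of them past the threshold. With 1 library left out in turn, the log2 fold change at 42 h ranged from -0.31 to 1.06 in A07570_B, from -0.77 to 0.15 in G02450_B, from -0.048 to 0.37 in C01370_A, from -0.27 to 0.55 in D04700_A and from -0.14 to 1.23 in F05980_B. The lowest value came without lactic acid replicate 1 at 42 h in each. With library totals it was -0.12 in C01370_A and -0.052 in D04700_A. The cause was not tested.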
